A study of Mus musculus with 3 samples.

Results

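The genes of the major histocompatibility complex (MHC), called H2 in the mouse, and their partners in antigen presentation were examined in 3 samples of adult renal corpuscle. The group held every gene whose symbol in the platform annotation starts with H2-, plus 12 named genes of peptide loading and MHC control, and came to 41 of the 19938 genes with a value. It was proposed with earlier results of these data in view, since H2-Q5 had been seen to differ between the arrays, so its spread is given here as a description. All 3 samples came from male mice of the outbred CD-1 stock, wild type and aged 7 to 9 weeks, with about 2 kidneys pooled in each. Minced kidney spent 15 minutes at 37 °C in collagenase A (0.5%), and corpuscles, the capillary tufts with their capsules, were collected on filters of 100, 70 and 40 µm. Total RNA was amplified in 1 round with the NuGEN WT-Ovation Pico kit and hybridised to an Affymetrix mouse gene array. There was 1 group and no treated or control sample, and nothing in the labels says if separate litters or days lie behind the pools, so the spread between samples may be technical.

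MHC class I molecules carry peptides made inside the cell to the surface of nearly every cell type, where CD8 T cells and natural killer cells read them. The proteasome cuts the peptides, the TAP transporter moves them into the endoplasmic reticulum, and chaperones load them on a heavy chain bound to B2m, its light chain. MHC class II molecules carry peptides taken up from outside and are mainly known from dendritic cells, macrophages and B cells. Interferon gamma raises the transcription of both systems, class I in part through Nlrc5 and class II through Ciita. Mouse haplotypes differ in which genes of the class I Q and T regions they hold, and an outbred stock can carry several haplotypes; these arrays give no genotype.

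The deposited values are log2 signals, and each gene took its probe set of highest mean. Background was the 95th percentile of 1210 olfactory and vomeronasal receptor probe sets, at 6.90, 6.96 and 6.92 log2 on replicates 1, 2 and 3, which are linear signals of 119, 124 and 121. A gene was called detected when its signal lay above this level in a one-sided limma test (Benjamini-Hochberg adjusted p under 0.05). Of the 41 members, 24 were detected, or 58.5%, and of all genes 58.9%. Their median level was 0.54 log2 above background, against 0.37 for all genes. For sorted podocytes and with other software, the study took a raw signal of 500 as a very rough level for in situ hybridization. The scale may differ here. A linear signal over 500 on all 3 arrays was reached by 6 members (14.6%) and by 17.2% of all genes. The members as a group were therefore detected about as often as genes at large, and the roles within the group differed widely.

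The samples held the cell types of a corpuscle. All 6 podocyte markers and all 8 endothelial markers with a value were detected, Nphs1 at 10.81, 10.81 and 10.79 log2 and Kdr at 11.73, 11.73 and 11.69. Of 8 markers of the proximal tubule, the segment next to the corpuscle, 7 were detected. The highest, Kap, had a mean of 10.61 log2, close to Nphs1, so tubule RNA was present. The median of the tubule markers was 0.88 log2 above background, against 4.21 for podocyte and 4.00 for endothelial markers. The part of tubule cells in the member signals was not tested. In whole tissue, fewer cells of a type and less RNA per cell cannot be told apart.

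**Figure D1:**
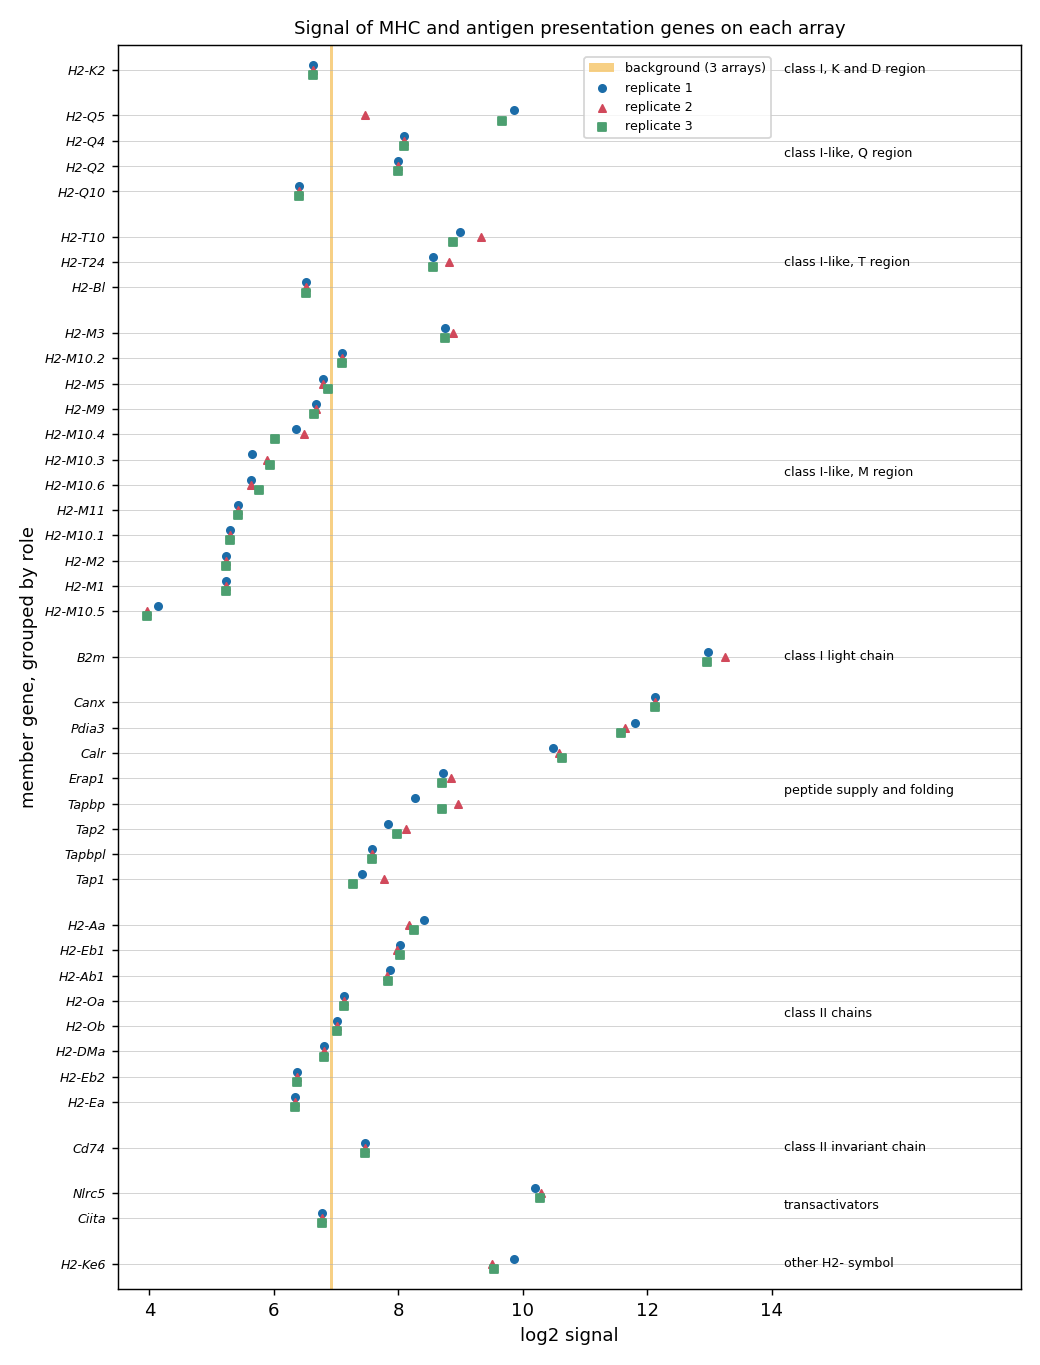
Log2 signal (horizontal axis) of each of the 41 members on replicates 1, 2 and 3 (points), grouped by role, with the background range of the arrays as a vertical band. B2m and the chaperones Canx, Pdia3 and Calr stand far to the right of the band, most M region genes stand left of it, and H2-Q5 alone has one array far from the others.

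The class I light chain and the loading machinery were detected in the main call. B2m had 12.97, 13.25 and 12.96 log2 on replicates 1, 2 and 3, a mean of 13.06 ± 0.16 (SD, n = 3), or 6.14 above background and a linear signal of 8547. Replicate 2 was higher than the other arrays, by 0.28 log2. All 8 genes of peptide supply and folding were detected, though Tap1 and Tapbpl were not with the 99th percentile of the receptors as background.

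The general chaperones of the endoplasmic reticulum, which also fold proteins other than class I, were far above background. Canx (calnexin), which holds the newly made heavy chain, had 12.12 log2 on every array. Pdia3, the oxidoreductase of the loading complex, had 11.81, 11.65 and 11.58 log2, a mean of 11.68 ± 0.12 (SD, n = 3). Calr (calreticulin), which keeps the empty heavy chain and B2m in the complex, had 10.49, 10.58 and 10.64 log2, a mean of 10.57 ± 0.07 (SD, n = 3). With B2m and Nlrc5 these make up the 5 members whose linear signal passed 1000 on all arrays.

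The genes dedicated to class I loading were detected nearer to background. Tap1, a subunit of the TAP transporter, had 7.42, 7.77 and 7.27 log2, and its mean of 7.48 ± 0.25 (SD, n = 3) lay 0.56 above background. Its partner Tap2 had 7.83, 8.13 and 7.97 log2, a mean of 7.98 ± 0.15 (SD, n = 3). Tapbp (tapasin), which bridges TAP and the heavy chain, had 8.27, 8.96 and 8.71 log2, a mean of 8.65 ± 0.35 (SD, n = 3).

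On each of these 3 genes replicate 2 was the highest array, by 0.42 log2 over the mean of the others for Tap1, 0.23 for Tap2 and 0.47 for Tapbp. Erap1, the aminopeptidase that trims peptides to length, had 8.71, 8.84 and 8.70 log2, with replicate 2 higher by 0.14. Tapbpl, a tapasin relative that edits peptides, had 7.57 log2 on every array.

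RefSeq promoters (build GRCm38.p6) were matched by symbol for 29 of the 41 members, and H2-Q5 was not among them. The 300-base windows around the gene start were searched on both strands for a core of the interferon-stimulated response element (ISRE; GAAA and GAAA with NN between them), for CCAAT, the core of the Y box, and for TGACG, one arm of a cyclic AMP response element such as the X2 box of MHC promoters holds. CCAAT was found in 26 of the 29 members (89.7%) and in 41.1% of all 27025 genes with a promoter. TGACG was found in 12 members (41.4%) and in 23.0% of all genes. The ISRE core was found in 2 members, B2m and Erap1 (6.9%), and in 3.99% of all genes. Variants of these letters were not searched, so other forms of the element are neither counted nor marked. Only the B2m match lies wholly within the 250 bases before the start, a window chosen after the counts were seen, where the shares were 3.45% of members and 3.46% of all genes. Many MHC genes arose by duplication and share promoter sequence, so these genes are not independent of each other, and a match of letters is no binding site. The 250 bases before the start are shown for 4 members, with every match in capitals: B2m and Tap1, which were higher on replicate 2, H2-Q4, a class I gene that gave one value on all arrays, and H2-Aa, a class II gene.
B2m: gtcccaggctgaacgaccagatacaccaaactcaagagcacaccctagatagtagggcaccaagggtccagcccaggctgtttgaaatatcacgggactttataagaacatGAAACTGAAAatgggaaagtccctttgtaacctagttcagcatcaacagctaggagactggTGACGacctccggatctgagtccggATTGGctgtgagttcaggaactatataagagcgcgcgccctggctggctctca
Tap1: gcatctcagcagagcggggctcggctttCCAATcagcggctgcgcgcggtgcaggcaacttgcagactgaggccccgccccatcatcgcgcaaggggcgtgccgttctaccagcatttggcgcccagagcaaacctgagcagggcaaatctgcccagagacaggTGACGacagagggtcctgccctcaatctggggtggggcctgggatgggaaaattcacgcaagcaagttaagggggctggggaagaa
H2-Q4: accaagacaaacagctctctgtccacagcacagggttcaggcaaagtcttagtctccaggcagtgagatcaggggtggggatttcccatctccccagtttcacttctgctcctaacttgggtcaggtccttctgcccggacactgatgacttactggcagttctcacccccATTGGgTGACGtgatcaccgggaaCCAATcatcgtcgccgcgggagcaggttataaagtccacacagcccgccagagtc
H2-Aa: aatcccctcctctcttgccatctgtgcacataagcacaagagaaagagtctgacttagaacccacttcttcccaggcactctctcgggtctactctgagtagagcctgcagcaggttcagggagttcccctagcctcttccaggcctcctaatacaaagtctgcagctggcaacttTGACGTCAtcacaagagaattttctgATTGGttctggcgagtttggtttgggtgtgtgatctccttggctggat
The B2m stretch (chr2:122147437-122147686, plus strand) holds the ISRE core from 139 bases before the start, TGACG from 78 and CCAAT, on the other strand, from 53. In Tap1 (chr17:34187306-34187555, plus strand) CCAAT lies 222 bases and TGACG 86 bases before the start. H2-Q4 (chr17:35379367-35379616, plus strand) has TGACG 73 bases before the start with CCAAT matches on either side, at 79 and 55. In H2-Aa (chr17:34287824-34288073, minus strand) matches of TGACG on opposite strands, 74 and 71 bases before the start, overlap in a full palindrome, and CCAAT follows at 48.

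Of the 20 class I heavy chain and class I-like genes with a probe set of their own, 7 were detected (35%). The classical heavy chains H2-K1 and H2-D1 have no such probe set here and are described with the shared ones. H2-K2, a transcribed pseudogene in RefSeq, had 6.63 log2 on every array and was not detected.

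H2-Q5, in the Q region and a transcribed pseudogene in RefSeq, was the member that differed between samples. It had 9.86 log2 on replicate 1, 7.46 on replicate 2 and 9.66 on replicate 3, linear signals of 929, 177 and 808. The mean was 8.99 ± 1.33 (SD, n = 3), so the spread exceeded that of every other member. Replicate 2 minus the mean of the others was -2.29 log2, so it was 4.90-fold lower, and no other gene of the 19938 fell as far there. It was the 1 member (2.44%) with a range above 1 log2, which 0.301% of all genes showed. On replicate 2 it was 0.51 log2 above background, against 2.96 on replicate 1 and 2.74 on replicate 3. Being lower than both other arrays by over 1 log2 on replicate 2 was seen in 0.0201% of all genes, 4 in number, the others being Colgalt2, Kcnma1 and Nfil3. Compared to every deposited decimal, its value on replicate 2 was held by 24 probe sets of that array, Cd74 among them, its value on replicate 1 by 1 and its value on replicate 3 by 3. Of all probe sets 45.1%, 46.1% and 44.8% share a value with another on replicates 1, 2 and 3, and how the software produced such ties was not tested.

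The other Q region genes with a probe set of their own had the same value on all arrays. H2-Q4 had 8.10 log2 and H2-Q2 had 7.99 log2 on every array, both detected. H2-Q10, known as a secreted class I chain of the liver, had 6.40 log2 on every array and was not detected.

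In the T region, 2 of the 3 genes with a probe set of their own were higher on replicate 2. H2-T10, whose products are known as ligands of gamma-delta T cells and which RefSeq lists as a transcribed pseudogene, had 8.99, 9.33 and 8.88 log2, a mean of 9.07 ± 0.23 (SD, n = 3), with replicate 2 higher by 0.39. H2-T24 had 8.56, 8.82 and 8.56 log2, with replicate 2 higher by 0.27. H2-Bl, a transcribed pseudogene, had 6.52 log2 on every array and was not detected.

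Of the 12 M region genes 2 were detected. H2-M3, which presents peptides with a formylated start such as bacteria make, had 8.76, 8.88 and 8.76 log2, 1.87 above background on average and 0.13 higher on replicate 2. H2-M10.2 had 7.09 log2 on every array, 0.17 above background. The remaining 10 had means between 4.01 log2 for H2-M10.5 and 6.81 for H2-M5 and were not detected. Between them lay H2-M9 at 6.67 log2, H2-M10.4 at 6.29 (6.35, 6.49 and 6.02 on the arrays), H2-M10.3 at 5.82 and H2-M10.6 at 5.68. H2-M11 had 5.42 log2, H2-M10.1 had 5.29, and H2-M2 and H2-M1 had 5.23 each. H2-M1 and the H2-M10 genes are known from sensory neurons of the vomeronasal organ, the tissue of some of the receptors that set the background.

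Several H2 genes share probe sets in the annotation, and those probe sets, outside the choice of members, were looked at after the values of H2-Q5 were seen. Annotation gives 8 probe sets several H2 symbols, and 7 of them were above background on every array. A probe set shared by H2-D1, LOC547349 and H2-K1 had 10.83, 11.26 and 10.74 log2, and a second one of the same genes had 10.44, 10.82 and 10.44. Classical class I signal was thus far above background in all samples and was higher on replicate 2, by 0.48 and 0.38 log2.

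The opposite was seen for 2 of the 8 (25%), against 0.239% of all probe sets, by the same limit of over 1 log2 under both other arrays. The probe set shared by H2-Q6 and H2-Q8 had 11.46, 9.79 and 11.30 log2, so replicate 2 was 3.01-fold lower. The one shared by H2-T9, H2-T22 and H2-T10 had 9.06, 7.34 and 8.98 log2, 3.21-fold lower on replicate 2. Its direction is opposite to that of the probe set for H2-T10 alone, so no direction can be given for that gene as a whole. The probe sets of H2-Q1 with H2-Bl, at 10.19 log2, and of H2-T-ps with H2-T23, at 8.59, gave the same value on every array. That of H2-T3 and H2-T18 lay under background at 6.34, 6.34 and 6.40 log2. Low signal on replicate 2 was therefore found on 3 probe sets of the Q and T regions, beside neighbours that were equal or higher there.

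**Figure D2:**
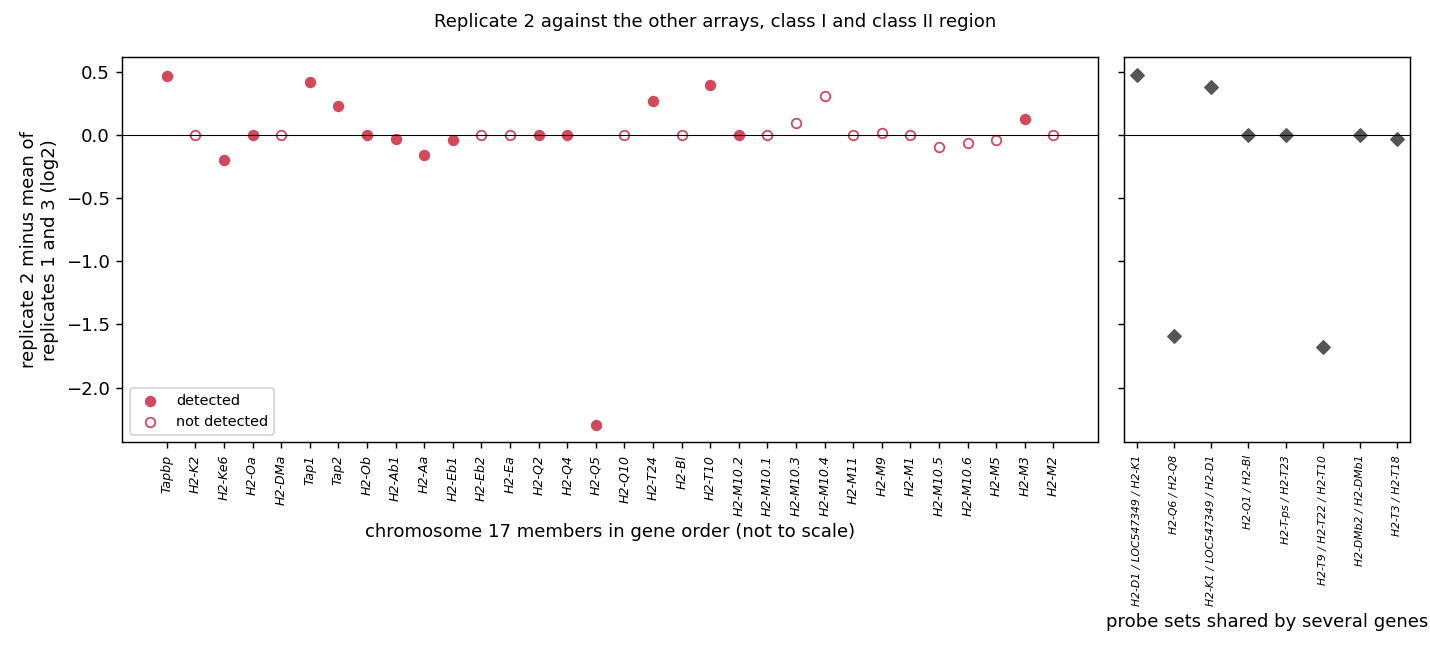
Signal on replicate 2 minus the mean of replicates 1 and 3 (vertical axis, log2) for the 32 members on chromosome 17 in gene order (left; filled points are detected, open ones not) and for the 8 probe sets shared by several H2 genes (right). H2-Q5 lies at -2.29, the shared probe sets of H2-Q6 with H2-Q8 and of H2-T9 with H2-T22 and H2-T10 at -1.59 and -1.68, while Tapbp, Tap1, H2-T10 and both shared probe sets of H2-D1 and H2-K1 lie above 0.

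Class II genes were nearer to background than B2m and the general chaperones, and none was higher on replicate 2. Their levels overlapped those of the genes dedicated to class I loading, such as Tap1 at 0.56 log2 above background. Of the 8 chains 5 were detected. H2-Aa, the alpha chain of the A molecule, had 8.42, 8.18 and 8.26 log2, a mean of 8.28 ± 0.12 (SD, n = 3), or 1.36 above background. Its beta chain H2-Ab1 had 7.87, 7.81 and 7.83 log2, a mean of 7.84 ± 0.03 (SD, n = 3). H2-Eb1, the beta chain of the E molecule, had 8.02, 7.98 and 8.02 log2. On these 3 genes replicate 2 was the lowest array, at -0.16, -0.04 and -0.04 log2 relative to the mean of the others.

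H2-Oa and H2-Ob form a brake on peptide loading and were detected close to background, at 7.13 and 7.02 log2 on every array. H2-Ob, 0.097 log2 above background, was the detected member nearest to it, and H2-M5 was the nearest that was not, at -0.11, followed by H2-DMa at -0.12. H2-DMa, a chain of the DM molecule that exchanges peptides, had 6.80 log2 on every array. A probe set shared by H2-DMb1 and H2-DMb2, its partner chains, had 7.90 log2 on every array. H2-Eb2 at 6.38 log2 and H2-Ea, a transcribed pseudogene in RefSeq, at 6.33 log2 were not detected.

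Cd74, the invariant chain that guards the class II groove, was detected at 7.46 log2 on every array, 0.54 above background. It is known as an abundant transcript of antigen-presenting cells. With the class II chains, 6 of 9 genes were detected.

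The transactivators were read on unequal terms. Ciita, which switches on class II genes, had 6.77 log2 on every array and was not detected. Nlrc5, its class I counterpart, had 10.20, 10.29 and 10.28 log2 on the probe set that was used, a mean of 10.26 ± 0.05 (SD, n = 3). It has 19 probe sets, where each of the 40 other members has 1. Of these 12 were above background on every array, 6 under it on every array and 1 on either side. The second highest mean was 8.34 log2, the median 7.09 and the lowest 5.51, so the level of Nlrc5 depends on which probe set is taken. H2-Ke6, a hydroxysteroid dehydrogenase that lies in the region and presents no antigen, had 9.86, 9.50 and 9.54 log2, highest on replicate 1.

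**Figure D3:**
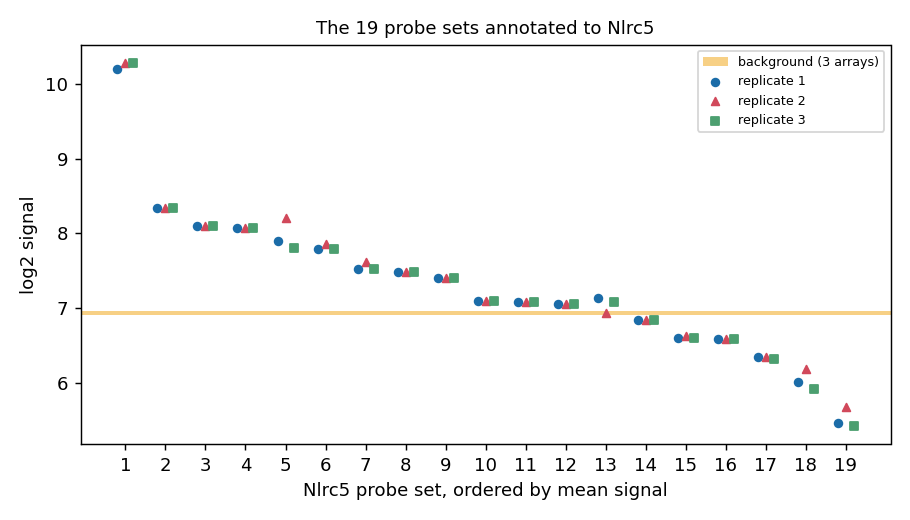
Log2 signal (vertical axis) on replicates 1, 2 and 3 of the 19 probe sets annotated to Nlrc5, ordered by their mean, with the background range as a horizontal band. The first stands at 10.26, the second at 8.34, and 6 lie under the band on every array.

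Values that repeat between arrays limit how the spread can be read. Of the members 18 (43.9%) held one value on all 3 arrays, 8 (19.5%) on a pair of them and 15 (36.6%) had 3 different values. Among all genes these shares were 54.2%, 27.5% and 18.3%. An SD of 0 here is not an error of 0.

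Replicate 2 was the highest array, by over 0.1 log2 above both others, for 8 of the 24 detected members (33.3%) and for 3.07% of the 11734 detected genes. The 8 were B2m, Tap1, Tap2, Tapbp, Erap1, H2-M3, H2-T10 and H2-T24, all of the class I system. This limit and this array were picked after the values were seen, so the count is a description and has no test. Among detected members 4 (16.7%) were highest on replicate 1 and 0 on replicate 3, against 9.2% and 4.01% of detected genes. The median deviation from the 3-array mean on replicate 2 was 0 over all 41 members, tied values included. Over the 15 members with 3 different values it was 0.061 log2, against -0.0086 over the 3643 such genes of the whole series. With detected genes only it was 0.028 log2 over 13 members, against -0.012 over 3012 genes. The differences of these 8, from 0.13 to 0.47 log2, stand against a range of -0.29 to 0.34 between the 1st and 99th percentiles of all detected genes.

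Other genes of antigen presentation were listed apart from the members. Of 38 with a value, from 43 listed, 32 were detected and 13 passed a linear signal of 500 on all arrays. Psmb9, a subunit of the immunoproteasome that cuts peptides for class I, had 10.58, 11.31 and 10.45 log2, so replicate 2 was 0.80 higher. Hsp90b1, a chaperone, had 13.06, 13.07 and 12.99 log2. Psme1, a proteasome activator, had 11.62, 11.67 and 11.62 log2, and neither of these differed by over 0.1 on replicate 2.

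Replicate 2 was the highest array for 5 of the 32 by the same limit, and for 3.07% of all detected genes. The 5 were Psmb9 and, named after their values were seen, Psmb8, Psmb10, Ctss and Cd274. Psmb8, an immunoproteasome subunit, had 9.40, 10.05 and 9.38 log2, and Psmb10, the third one, 8.90, 9.16 and 9.00. Ctss, the protease that degrades the invariant chain, had 9.41, 9.92 and 8.96 log2. Cd274, an inhibitory ligand of T cells, had 7.66, 7.86 and 7.66 log2. Among the genes not detected were Cd86, a costimulator, at 6.07 log2 on every array, and Marchf1, a ligase that removes class II from the surface, at 6.57.

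Many interferon genes were also higher on replicate 2. Of 28 with a value, from 32 listed, 27 were detected. Of these, 16 were highest on replicate 2, as were 3.07% of all detected genes. A range above 1 log2 was seen in 15 of them and in 0.301% of all genes. Their mean log2 signal was 8.60, 9.35 and 8.48 on replicates 1, 2 and 3. Ifit3, an antiviral protein that interferon induces, had 10.63, 11.93 and 10.34 log2. Iigp1, a GTPase induced by interferon, had 8.97, 10.52 and 8.74 log2. The receptor and kinase genes of the pathway did not share this: Ifngr1 had 10.60, 10.67 and 10.77 log2 and Jak1 had 11.38, 11.30 and 11.27. Other listed genes did not share it either, among them Irf1 (7.45, 7.45 and 7.37 log2) and Irf2 (9.51, 9.51 and 9.53). Irf8 had 7.29 log2 and Socs1 had 7.53 log2 on every array. Rsad2 had 8.97, 8.99 and 8.29 log2, so its values on replicates 1 and 2 were close. The list was drawn up with the difference of replicate 2 already known, and the part of interferon in the values of the members was not tested.

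Some markers of antigen-presenting cells were also higher on replicate 2. Of 21 macrophage and dendritic cell markers 10 were detected. Of these 10, 3 were highest on replicate 2, 2 on replicate 1 and 0 on replicate 3, and 1 was lowest on replicate 2. For all detected genes these shares were 3.07%, 9.2%, 4.01% and 3.69%. The mean signal of all 21 was 7.27, 7.30 and 7.18 log2. Tyrobp, an adaptor of myeloid cells, had 9.01, 9.52 and 8.71 log2, and Lyz2, the lysozyme of macrophages, had 8.98, 9.20 and 8.31. With Cx3cr1, at 7.98, 8.16 and 7.98 log2, these were the 3. Replicate 2 minus the mean of the others was 0.65 log2 for Tyrobp and 0.55 for Lyz2, which was lowest on replicate 3. Cd68 and the undetected C1qa, C1qb and C1qc each gave one value on all arrays. Mrc1, the mannose receptor, had 10.41, 10.19 and 10.20 log2.

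The other 6 detected were Ptprc, the leukocyte marker, at a mean of 8.55 log2, Zbtb46 at 7.74, Cd68 at 7.73, Fcer1g at 7.23, Csf1r at 7.09 and Clec9a at 7.02. Zbtb46, with 7.78, 7.64 and 7.78 log2, was lowest on replicate 2. Clec9a, with 7.26, 7.02 and 6.80 log2, was highest on replicate 1. Among the 11 not detected, Adgre1 had 5.84 log2, Itgam 6.03 and Flt3 6.41. Of 11 lymphocyte markers with a value 2 were detected and 0 were highest on replicate 2, with means of 6.62, 6.54 and 6.57 log2. The part of these cells in the class I and class II signals was not tested.

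**Figure D4:**
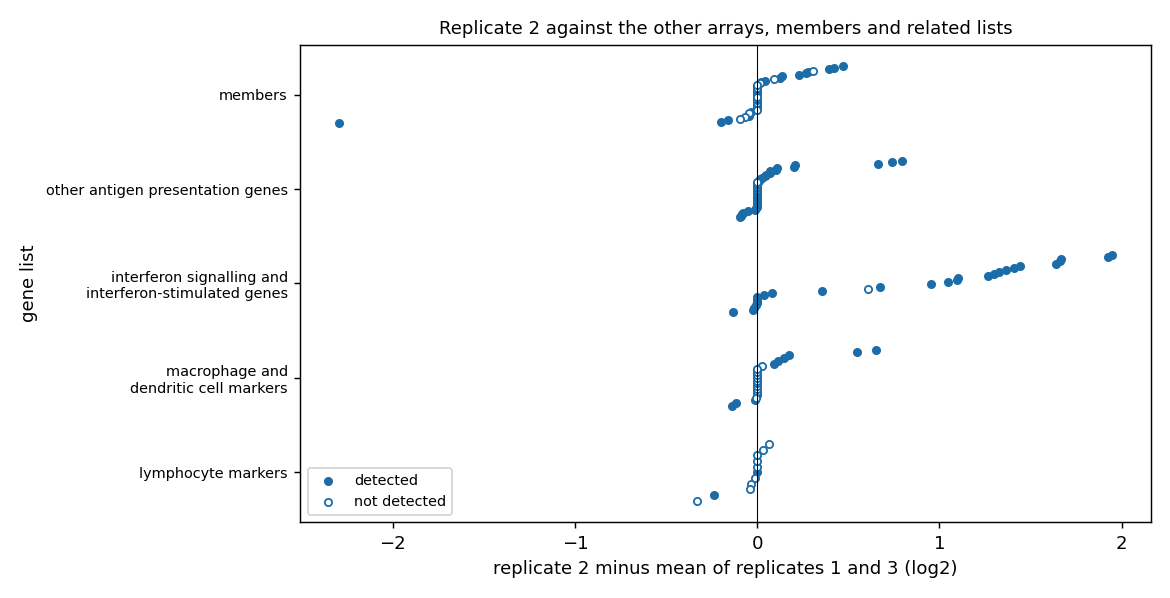
Signal on replicate 2 minus the mean of replicates 1 and 3 (horizontal axis, log2) for each member and for each gene of 4 related lists, with filled points for detected genes and open points for others. Interferon genes reach 1.95, the members reach 0.47 with H2-Q5 at -2.29, and most genes of each other list stand at or near 0.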

How the data were processed

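The authors deposited 1 table of log2 signals of 35557 probe sets on 3 arrays, which holds 0 columns of other samples. Expression Console from Affymetrix is named in the submitters' processing notes; its version, summary method and settings are not given in the sources used here. Values run from 2.36 to 14.40, with array medians of 7.11, 7.11 and 7.09, and were used without further normalization. Linear signals are 2 to the power of the log2 value.

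Platform annotation gives 1 symbol to 21789 probe sets, several to 1621 and none here to 12147. Probe sets with 1 symbol were used, and all 41 members carry current symbols. Signals were set against background and between arrays. The choice of probe set, the medians over genes and the linear limits also set probe sets side by side. Each probe set has its own affinity, so levels of different genes compare only roughly.

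Detection used limma's lmFit (intercept only) and trended eBayes, version 3.58.1 (R 4.3.3), fitted on all 19938 genes and adjusted over them. The test was run on simulated data with independent noise, equal for every gene, and no repeated values. That run does not cover the repeated values seen here or a spread such as that of H2-Q5. Because values repeat between arrays, p-values are likely too low and are not given, and the call is in effect a cut just above background. The number of arrays limits precision. Tables were made with Python 3.11.15 and pandas 2.3.3.

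Members, lists and limits were chosen with earlier results of these data known. Every member is named. Examples from each other list were drawn from its 8 detected genes of highest level and up to 4 undetected ones, and not all of these are named; further names were chosen after their values were seen. Alternatives were other backgrounds, a fixed signal of 150, other probe sets of a gene, quantile normalization and leaving out each array. An alignment of class I proteins was planned and not run. Cd74 was described without its promoter.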

Additional observations from a re-analysis of the deposited data

How the results depend on the processing

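The count of 24 detected members rests on the background. It was 18 with the 99th percentile of the receptors, 19 with a fixed linear signal of 150 and 37 with the median of the receptors, and leaving out 1 array gave 23 to 24. The fixed signal of 150 left out H2-M10.2, H2-Oa, H2-Ob, H2-Q5 and Tap1. In the main call the standard error of H2-Q5 was 0.040 log2, near the 0.035 of H2-Q4, whose values did not differ between arrays. That call therefore did not reflect the spread of H2-Q5, and why the fixed signal left it out was not tested. The 99th percentile left out Cd74, H2-M10.2, H2-Oa, H2-Ob, Tap1 and Tapbpl. Taking the lowest probe set of each gene gave 23, without Nlrc5. The median member level of 0.54 log2 above background became -0.095 with the 99th percentile, 2.09 with the median of the receptors and 0.24 with the fixed signal. It was 0.40 with the mean and 0.20 with the lowest of a gene's probe sets, and leaving out 1 array gave 0.44 to 0.54. The difference of -2.29 log2 for H2-Q5 was -2.30 after quantile normalization and -2.39 to -2.19 when replicate 1 or 3 was left out. It has no value without replicate 2. The 1 member with a range above 1 log2 became 2 at a limit of 0.5 log2, Tapbp being added, and leaving out 1 array gave 0 to 1, with 0 when replicate 2 was left out. The 6 members over a linear signal of 500 became 6 to 7 when 1 array was left out, and 5 with the mean or the lowest of a gene's probe sets. Over all members, tied values included, the median deviation on replicate 2 was 0 and became -0.0077 after quantile normalization. The cause was not tested. No paired analysis was possible because there was only 1 group. Outlying samples were not tested, since a group of 3 is too small. Signals near background and the 3 arrays limit every statement on spread.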
